A study of Mus musculus with 7 samples.

Results

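Otx2, Fgf5, Pou3f1, Zic2, Sall2, Sox4, Foxd3, Cldn6, Sfrp2 and Wnt8a are 10 genes that mouse pluripotent cells use as they leave the naive state and take on formative or primed epiblast character. They were found by their symbols in the platform annotation, and all 10 were measured among 22180 genes with 1 symbol on an Affymetrix whole-transcript array. Sox4 and Sfrp2 had a pair of probe sets each, and the brighter one was used.

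Each of 7 arrays measured the transcripts of mouse cells of strain 129. There were 2 arrays of Nanog knockout (KO) induced pluripotent stem cells (iPSC), 2 of wild-type (WT) iPSC, 1 of WT embryonic stem cells (ESC), 1 of Nanog KO embryonic fibroblasts (MEF) and 1 of WT MEF. iPSC are somatic cells brought back to an ESC-like state, and Nanog is a homeodomain transcription factor of naive pluripotency. The design asks how iPSC made without Nanog differ from WT pluripotent cells. The labels call the iPSC replicates biological without saying whether the KO pair came from separate lines. Growth was in ESC medium, 2i/LIF medium or MEF medium, and the labels do not say which cells had which. If the genotypes were grown in different media, medium and genotype cannot be told apart.

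In the embryo, naive epiblast cells of the blastocyst pass through a formative state before they become primed for the germ layers. Otx2 and Pou3f1 (Oct6) are transcription factors that mark and drive that exit, and Fgf5 is the ligand most used as its marker. Culture with inhibitors of MEK and GSK3 plus LIF holds mouse cells in the naive state and keeps these genes low, whereas serum with LIF lets part of the cells express them.

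Levels are log2 values of the deposited intensities. Background was judged on each array from 1394 receptor genes of the olfactory and vomeronasal systems, whose 95th percentile, the yardstick, lay between 6.30 and 6.50. Where every array of the dimmer group lay below it, only a lower bound of the fold is given, against the higher of the yardstick and the gene's own value. The median of all genes lay between 7.05 and 7.13. Nanog checked the labels, with 7.50 and 7.44 on the KO iPSC arrays, against 12.84 and 12.76 in WT iPSC and 12.73 in WT ESC. KO MEF gave 6.42 and WT MEF 6.53. The 2 KO iPSC arrays lay closer together (SD of the gene differences 0.15) than the 2 WT iPSC arrays (0.32). The 18 fibroblast markers, of which 17 were measured, had medians of 7.13 and 6.91 in KO iPSC, 9.41 and 7.48 in WT iPSC, 8.38 in WT ESC, 12.4 in KO MEF and 11.7 in WT MEF. The log2 of their summed intensity was 11.18 and 11.17 in KO iPSC, 14.66 and 12.97 in WT iPSC, 13.77 in WT ESC, 16.50 in KO MEF and 16.05 in WT MEF. In KO iPSC 6 of the 17 markers were at or below the yardstick on each array, Postn among them at 5.37 and 5.08. The part that this fibroblast signal in the WT pluripotent arrays plays in the results was not tested, and values that bear on it are given beside them.

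The promoter windows of the 3 genes with the largest differences below (Otx2, Cldn6 and Sox4) and of Foxd3, which did not pass, are shown for orientation. Each is the 250 bases before a RefSeq start site of GRCm38.p6, and 7 of the 10 genes had at least 1 window in that table. Otx2 had 4 windows, of which the most upstream is printed. The 6 motifs searched on both strands, with matches in capitals, were TAATCC (the OTX core), ATGCAAAT (the octamer), ACAATG (SOX), ATCAAAG (TCF/LEF), GGGCGG (GC box) and TATAAA.
Otx2 (chr14:48667645-48667894, minus strand): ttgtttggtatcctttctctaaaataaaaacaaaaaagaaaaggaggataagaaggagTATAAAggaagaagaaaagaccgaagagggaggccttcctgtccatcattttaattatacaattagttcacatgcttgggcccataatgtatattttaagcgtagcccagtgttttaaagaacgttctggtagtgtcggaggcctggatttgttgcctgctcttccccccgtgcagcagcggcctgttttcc
Cldn6 (chr17:23679115-23679364, plus strand): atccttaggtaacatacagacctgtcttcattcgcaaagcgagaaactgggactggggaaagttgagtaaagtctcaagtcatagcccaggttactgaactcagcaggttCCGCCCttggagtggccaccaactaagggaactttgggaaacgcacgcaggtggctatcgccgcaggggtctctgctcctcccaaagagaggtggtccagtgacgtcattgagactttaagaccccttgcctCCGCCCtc
Sox4 (chr13:28953700-28953949, minus strand): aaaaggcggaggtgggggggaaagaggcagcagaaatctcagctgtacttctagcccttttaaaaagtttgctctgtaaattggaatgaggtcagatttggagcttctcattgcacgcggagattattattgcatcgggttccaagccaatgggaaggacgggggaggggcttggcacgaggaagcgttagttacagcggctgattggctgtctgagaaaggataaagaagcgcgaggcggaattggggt
Foxd3 (chr4:99656049-99656298, plus strand): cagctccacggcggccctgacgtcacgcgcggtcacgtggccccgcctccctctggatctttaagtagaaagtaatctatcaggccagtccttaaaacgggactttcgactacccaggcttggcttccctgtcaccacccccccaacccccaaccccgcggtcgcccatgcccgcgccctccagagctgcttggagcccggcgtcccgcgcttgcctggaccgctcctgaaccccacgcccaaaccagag
The Otx2 window held 1 TATAAA and the Cldn6 window 2 GC boxes, while the Sox4 and Foxd3 windows held none of the searched letters. TATAAA stood in 12.4% of the 32851 windows of the table and the GC box in 32.7%. The OTX core, found in 6.25% of all windows, stood in another Otx2 window and in that of Sfrp2, which also held the octamer (1.6% of all windows). The Foxd3 window had 21 CpG and the Fgf5 window 24, against 6, 9 and 11 in the printed Otx2, Cldn6 and Sox4 windows and a median of 6 over all windows. These matches are descriptions of letters and were not linked to the measured levels.

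Of the 10 genes, all lay above background on each of the 3 WT pluripotent arrays, while 7 and 8 did so on the 2 KO iPSC arrays. The count was 9 in WT MEF and 8 in KO MEF. Of all genes, 62.5% to 63.7% lay above background on the WT pluripotent arrays and 61.2% and 62.1% on the KO iPSC arrays. The share was 61.0% in WT MEF and 62.5% in KO MEF. In Nanog KO iPSC against the 3 WT pluripotent arrays, 4 of the 10 genes fell (Otx2, Cldn6, Sox4 and Sfrp2) and 0 rose. Over all genes 8.81% were called lower and 6.89% higher in the same test. The median log2 difference of the 10 genes was -0.77 (-0.74 with 2 genes dim in KO iPSC set at their bound), against 0.03 over all 22180 genes. On the arrays themselves 8 of the 10 genes were lower on both KO iPSC arrays than on every WT pluripotent array, where 23.2% of all genes were. Tests are limma with Benjamini-Hochberg adjustment over all genes at a threshold of 0.05, and fewer cells of a type and less RNA per cell cannot be told apart in such bulk samples.

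**Figure D1:**
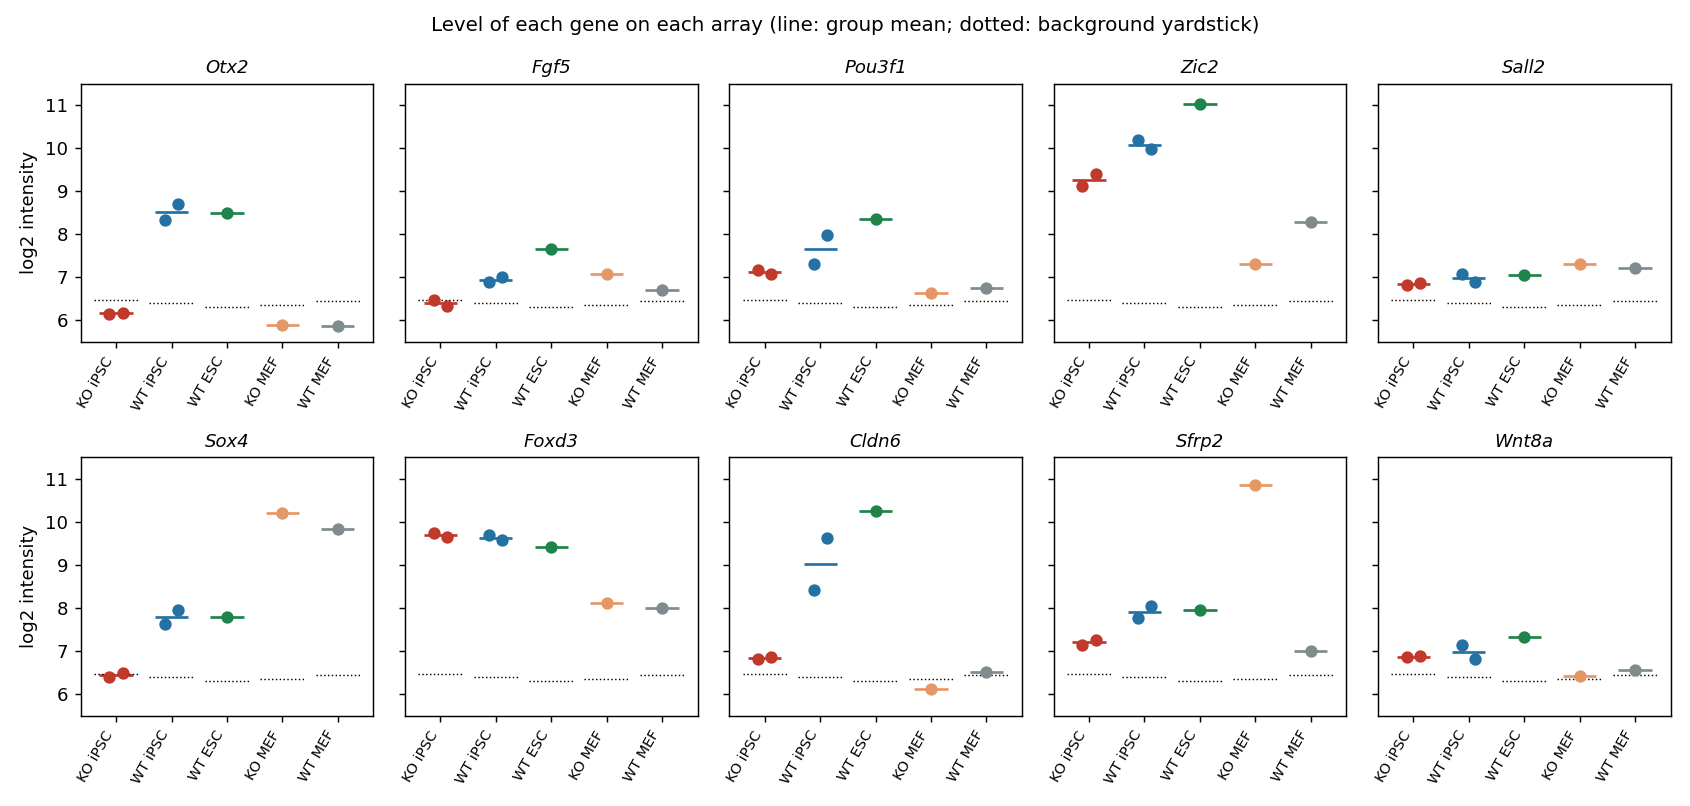
Log2 intensity (vertical axis) of each of the 10 genes on each of the 7 arrays, grouped as KO iPSC, WT iPSC, WT ESC, KO MEF and WT MEF. Points are arrays, lines group means and dotted lines the background yardstick averaged over the group's arrays. Otx2 lay at 6.16 on both KO iPSC arrays, below the yardstick, against 8.34 to 8.71 on the WT pluripotent arrays.

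Otx2, the homeodomain factor that redirects enhancer use as cells leave the naive state, stood at 6.16 and 6.16 on the KO iPSC arrays, against 8.34 and 8.71 in WT iPSC and 8.48 in WT ESC. KO MEF gave 5.89 and WT MEF 5.86. The KO iPSC arrays lay below background, next to the fibroblasts, and did not overlap the WT pluripotent arrays, which lay within 0.37 of each other. Otx2 was at least 4.12-fold lower in KO iPSC than in WT pluripotent cells (fitted log2 difference -2.35, SE 0.12, limma adjusted p = 0.000664). It was at least 4.16-fold lower than in WT iPSC and at least 4.04-fold lower than in WT ESC alone (limma adjusted p = 0.00169 and adjusted p = 0.00404). In mean level Otx2 stood above 32.4% of all genes in KO iPSC, 69.8% in WT iPSC and 68.9% in WT ESC. Otx2 was below background in both MEF. Without WT iPSC replicate 1, the WT pluripotent array with the most fibroblast signal, the difference was -2.44. Without WT iPSC replicate 2, the one with the least, it was -2.25.

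Pou3f1, the POU factor that acts with Otx2 in the formative state, had 7.16 and 7.08 in KO iPSC, against 7.32 and 7.99 in WT iPSC and 8.36 in WT ESC. KO MEF gave 6.64 and WT MEF 6.76. Both KO iPSC arrays were below each WT pluripotent array, but the gap to WT iPSC replicate 1 was small. The difference did not pass against WT pluripotent cells (log2 -0.77, SE 0.29, limma adjusted p = 0.142) or WT iPSC (-0.53, SE 0.23, adjusted p = 0.191). Against WT ESC it was -1.23 (95% interval -1.95 to -0.52), with an adjusted p of 0.0502, and it passed under 7 of 12 alternatives. Against WT pluripotent cells it passed under 2 of 14, without WT iPSC replicate 1 (-1.05, adjusted p = 0.0111) and in a fit of all 7 arrays. Against WT iPSC it was -0.87 without WT iPSC replicate 1 (adjusted p = 0.00206) and -0.20 without WT iPSC replicate 2.

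Zic2, a zinc finger factor of the early epiblast and neural plate, had 9.13 and 9.39 in KO iPSC, against 10.19 and 9.97 in WT iPSC and 11.03 in WT ESC. KO MEF gave 7.30 and WT MEF 8.28. Here the levels ran from WT ESC at the top through WT iPSC and KO iPSC to the fibroblasts, with no overlap between these groups. Zic2 fell 1.76-fold relative to WT iPSC (log2 -0.82, SE 0.13, adjusted p = 0.0185) and 3.42-fold relative to WT ESC (-1.77, SE 0.16, adjusted p = 0.006). Against both WT groups together the difference of -1.14 did not pass (SE 0.32, adjusted p = 0.0676). The WT ESC array stood 0.96 above the WT iPSC mean and takes part in that WT group.

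Fgf5, the growth factor used as the marker of the primed epiblast, had 6.48 and 6.34 in KO iPSC, against 6.89 and 6.996 in WT iPSC and 7.67 in WT ESC. KO MEF gave 7.07 and WT MEF 6.71. The KO iPSC arrays lay just below their background and were the lowest of the 7. Fgf5 fell at least 1.39-fold relative to WT iPSC (fitted log2 -0.53, SE 0.10, adjusted p = 0.0261) and at least 2.29-fold relative to WT ESC (-1.26, SE 0.12, adjusted p = 0.00644). Against both WT groups together it did not pass (-0.77, SE 0.24, adjusted p = 0.0888). The MEF arrays lay on either side of the WT iPSC arrays in Fgf5.

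Cldn6, a tight junction protein of epiblast epithelium, had 6.82 and 6.86 in KO iPSC, against 8.42 and 9.63 in WT iPSC and 10.24 in WT ESC. KO MEF gave 6.12 and WT MEF 6.52. It had the widest replicate gap among the 10 genes (1.22 between the WT iPSC arrays), yet all 3 WT values lay far above both KO values. Cldn6 fell 6.03-fold relative to WT pluripotent cells (log2 -2.59, SE 0.51, adjusted p = 0.0243), 4.55-fold relative to WT iPSC (-2.19, SE 0.39, adjusted p = 0.0233) and 10.6-fold relative to WT ESC (-3.40, SE 0.48, adjusted p = 0.0149). WT iPSC replicate 1 had the most fibroblast signal and the lowest Cldn6 of the WT pluripotent arrays. Without that array the difference from WT pluripotent cells was -3.10, and without WT iPSC replicate 2 it was -2.49 and no longer passed (adjusted p = 0.0783).

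Sox4, a SoxC factor of progenitor cells in many lineages, had 6.40 and 6.49 in KO iPSC, against 7.62 and 7.96 in WT iPSC and 7.78 in WT ESC. KO MEF gave 10.20 and WT MEF 9.84. KO iPSC stood at background, the WT pluripotent arrays above it and the fibroblasts highest. Sox4 fell 2.54-fold relative to WT pluripotent cells (log2 -1.35, SE 0.12, adjusted p = 0.00242), and by 1.35 and 1.34 on the log2 scale relative to WT iPSC and WT ESC. WT iPSC replicate 1, with the higher fibroblast marker median, had the lower Sox4 of the WT iPSC pair. The difference from WT pluripotent cells was -1.43 without that array and -1.26 without WT iPSC replicate 2. A second, dimmer Sox4 probe set was above background only on the MEF arrays and gave -0.23 in KO minus WT iPSC, and with both sets averaged the difference from WT pluripotent cells was -0.83 (adjusted p = 0.0106).

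Sfrp2, a secreted Wnt antagonist, had 7.15 and 7.25 in KO iPSC, against 7.76 and 8.06 in WT iPSC and 7.96 in WT ESC. KO MEF gave 10.86 and WT MEF 7.003. Its fall was the smallest of the 4, 1.65-fold relative to WT pluripotent cells (log2 -0.72, SE 0.11, adjusted p = 0.0126), 1.63-fold relative to WT iPSC (adjusted p = 0.0244) and 1.69-fold relative to WT ESC (adjusted p = 0.0404). The other Sfrp2 probe set stayed below background on every array, and with both averaged the difference from WT pluripotent cells was -0.43 (adjusted p = 0.0209). WT iPSC replicate 1 was the lower of its pair in Sfrp2. The difference from WT pluripotent cells was -0.81 without that array and -0.66 without WT iPSC replicate 2.

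The remaining members differed little in the iPSC. Foxd3, a forkhead factor needed to maintain the early epiblast, was the only one of the 10 with a positive difference: 9.75 and 9.65 in KO iPSC, against 9.70 and 9.58 in WT iPSC and 9.41 in WT ESC, with 8.11 in KO MEF and 7.99 in WT MEF. KO iPSC overlapped WT iPSC, and the difference was 0.06 (95% interval -0.19 to 0.30, adjusted p = 0.726). Sall2, a spalt-type zinc finger factor, had 6.83 and 6.88 in KO iPSC, against 7.09 and 6.90 in WT iPSC and 7.06 in WT ESC, with 7.31 in KO MEF and 7.21 in WT MEF. The 7 Sall2 values ran from 6.83 to 7.31, highest in the fibroblasts, and its difference from WT iPSC was -0.14 (-0.40 to 0.12). Wnt8a, a Wnt ligand of the early embryo, had 6.86 and 6.89 in KO iPSC, against 7.15 and 6.82 in WT iPSC and 7.32 in WT ESC, with 6.43 in KO MEF and 6.57 in WT MEF. The KO values lay between the WT iPSC values, and the difference was -0.12 (-0.46 to 0.22). Sall2 and Wnt8a lay above the yardstick on every array, and below the median of all genes on both KO iPSC arrays.

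**Figure D2:**
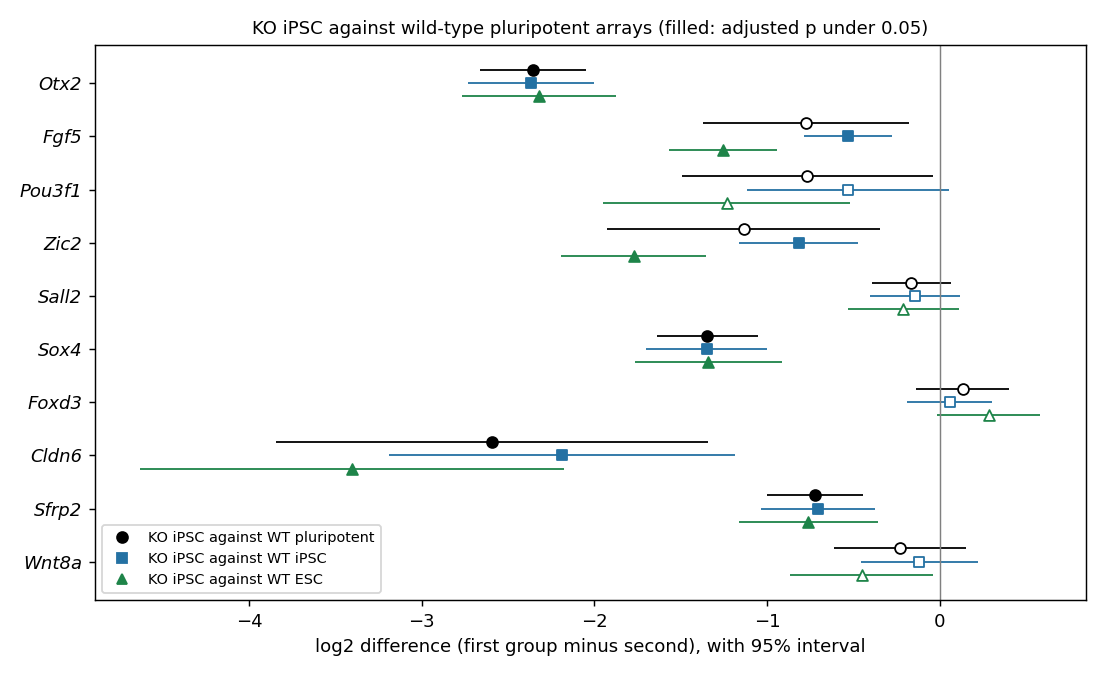
Log2 difference (horizontal axis, with 95% interval of the limma fit) of each of the 10 genes in KO iPSC against WT pluripotent (circles), WT iPSC (squares) and WT ESC (triangles), with filled symbols for adjusted p under 0.05. Otx2, Sox4, Cldn6 and Sfrp2 are filled in all 3 comparisons, Fgf5 and Zic2 against WT iPSC and WT ESC.

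With the WT groups taken apart, 6 of the 10 genes fell in KO iPSC against WT iPSC (Otx2, Cldn6, Sox4, Zic2, Sfrp2 and Fgf5) and 6 against WT ESC, with 0 rising in each. Over all genes 9.55% were called lower and 6.93% higher against WT iPSC, and 7.98% lower and 5.33% higher against WT ESC. The median of the 10 was -0.62 and -1.24, against 0.03 and 0.05 over all genes. The 3 comparisons share the KO iPSC arrays, so their calls are not separate evidence. Counts rested on having both KO arrays: with the pair averaged and counted as 1, Otx2 alone of the 10 passed against WT pluripotent cells and against WT iPSC, and Sox4 missed narrowly against WT pluripotent cells (adjusted p = 0.0503). With either KO array left out, Cldn6 and Sfrp2 did not pass against WT pluripotent cells (adjusted p from 0.102 to 0.175), nor did Sox4 without KO replicate 1 (adjusted p = 0.0531).

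WT ESC was set against WT iPSC to see how far the WT pluripotent cells differ in these genes. Relative to the WT iPSC mean, the WT ESC array had more Cldn6 (log2 1.22, SE 0.48), Zic2 (0.96, SE 0.16) and Fgf5 (0.72, SE 0.12). It also had more Pou3f1 (0.70, SE 0.28) and Wnt8a (0.33, SE 0.16), and less Foxd3 (-0.23, SE 0.12). Otx2 (-0.04), Sox4 (-0.01) and Sfrp2 (0.06) lay within the WT iPSC values. In limma 0 of the 10 genes passed, and 0.162% of all genes were called. An unadjusted p under 0.05 was found for 2 of the 10 genes and for 2704 of all 22180 genes. The count was 3 without WT iPSC replicate 1 (Zic2, Fgf5 and Cldn6) and 4 without WT iPSC replicate 2 (these and Pou3f1), where the close KO pair alone sets the spread and 4.04% and 10.3% of all genes were called.

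Set against the fibroblasts, with genotype as a covariate, iPSC had more Zic2, Foxd3 and Wnt8a and less Sox4. Zic2 rose 3.67-fold (log2 1.88, SE 0.12, 4 arrays against 2, adjusted p = 0.000866), Foxd3 3.07-fold (1.62, SE 0.09, adjusted p = 0.000603) and Wnt8a 1.35-fold (0.43, SE 0.12, adjusted p = 0.0435), a call holding under 6 of 14 alternatives. Sox4 fell 7.48-fold (-2.90, SE 0.39, adjusted p = 0.00477). With a MEF array left out, the fit gives iPSC minus MEF within the genotype of the MEF array kept. For Sox4 this was -2.05 within WT and -3.76 within KO. Over all genes 16.0% were called higher and 14.7% lower. Otx2 (1.47, SE 0.54, adjusted p = 0.101) and Cldn6 (1.61, SE 0.51, adjusted p = 0.0692) did not pass, and in both the KO iPSC arrays lay nearer the fibroblasts than the WT iPSC arrays did. Within WT (without KO MEF) Otx2 was 2.66 and Cldn6 2.51, and within KO (without WT MEF) they were 0.27 and 0.72. Fgf5 did not pass with both MEF arrays (-0.21, adjusted p = 0.525), and was 0.23 within WT and -0.66 within KO. Sfrp2 did not pass with both MEF arrays (-1.38, SE 0.997), and was 0.90 within WT and -3.66 within KO.

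Between the MEF arrays, with 1 of each genotype and no test, Sfrp2 alone among the 10 differed by 2-fold or more. It stood at 10.86 in KO MEF and 7.003 in WT MEF, 14.5-fold higher in KO MEF, where 2.80% of all genes were at least 2-fold higher. Its dimmer probe set, below background on every array, differed by 0.04 in this pair. Of the 17 fibroblast markers 16 were higher in KO MEF, 7 of them at least 2-fold (median log2 difference 0.54). Dcn was 18.4-fold higher, and Lum had 10.60 in KO MEF and 5.09, below background, in WT MEF. The part of these markers in the Sfrp2 value was not tested. Zic2 came next, with 7.30 in KO MEF and 8.28 in WT MEF. The other 8 genes differed by 0.40 or less on the log2 scale.

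The genotype difference in iPSC was then set against that in MEF. The interaction, (KO minus WT in iPSC) minus (KO minus WT in MEF), passed for Sfrp2 (-4.56, SE 0.22, adjusted p = 0.00415), Otx2 (-2.40, SE 0.25, adjusted p = 0.0111), Sox4 (-1.71, SE 0.24, adjusted p = 0.0211) and Fgf5 (-0.89, SE 0.17, adjusted p = 0.0443). With the probe sets of a gene averaged it was -2.37 for Sfrp2 and -1.30 for Sox4. All 4 were lower and 0 were higher, where 5.48% of all genes were called lower and 3.07% higher. Zic2 had differences of -0.82 in iPSC and -0.98 in MEF, and its interaction of 0.16 did not pass (SE 0.23, adjusted p = 0.712). Each MEF group is 1 array, assumed to vary like the iPSC pairs. Otx2 was below background on both MEF arrays, where no genotype difference could be seen, so its interaction repeats the iPSC difference. In Otx2 and Fgf5 both KO iPSC arrays were below background, and those sizes are fitted values. Sox4 stood at background on the KO iPSC arrays (6.40 and 6.49). Otx2, Sox4 and Fgf5 no longer passed with either KO iPSC array left out (adjusted p from 0.0669 to 0.195).

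**Figure D3:**
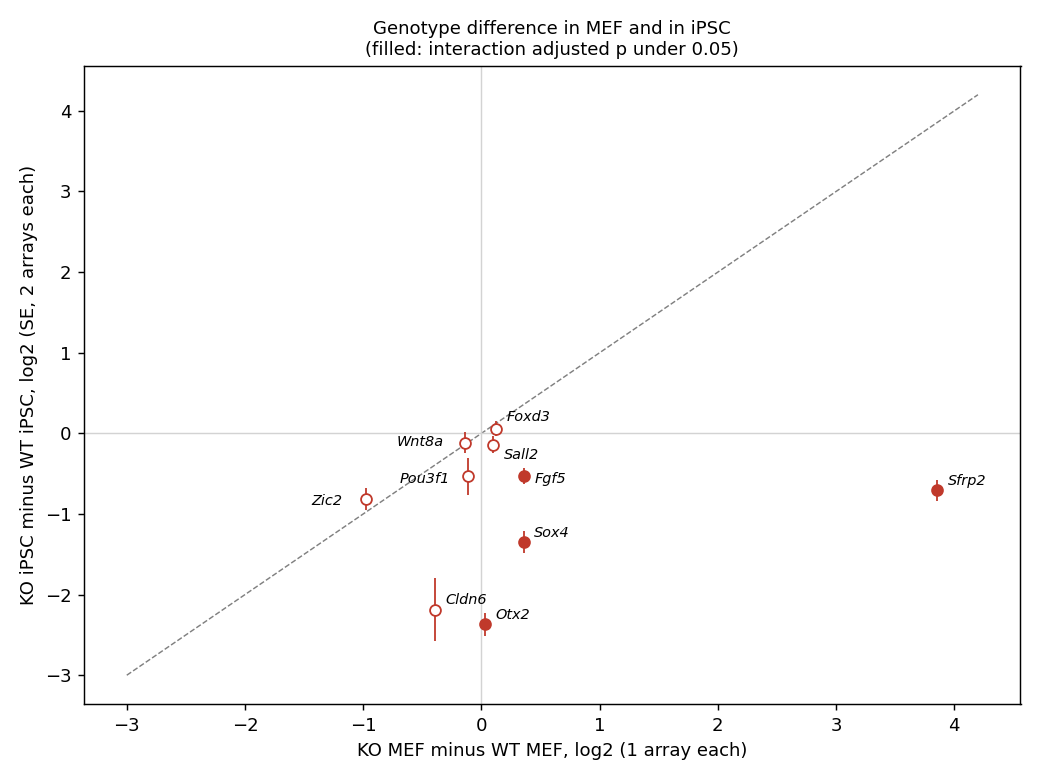
KO minus WT difference of each of the 10 genes in MEF (horizontal axis, log2, 1 array of each genotype) and in iPSC (vertical axis, log2, with SE, 2 arrays of each). The dashed line marks equal differences, filled points an interaction with adjusted p under 0.05, and Sfrp2 lies far to the right at 3.86 in MEF and -0.70 in iPSC.

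Other genes of the primed and gastrulating epiblast, 24 listed and 22 measured, were set beside the 10. This list, like the others, was chosen with earlier results of these data known. In KO iPSC against WT pluripotent cells 7 fell, 0 rose and 15 did not pass, with a median of -0.42 against 0.03 over all genes. Over all genes 8.81% were called lower and 6.89% higher in that test. Against WT iPSC 8 fell and 1 rose (Eomes, 0.45, named after its value was seen), beside 9.55% lower and 6.93% higher over all genes. Tcf15, a bHLH factor that primes pluripotent cells for differentiation, had 7.13 and 7.05 in KO iPSC, against 9.23 and 9.71 in WT iPSC and 8.96 in WT ESC (log2 -2.21, SE 0.22, adjusted p = 0.00338). Grhl2, a factor that opens epithelial enhancers in formative cells, had 6.58 and 6.47 in KO iPSC, against 8.67 and 8.60 in WT iPSC and 7.98 in WT ESC (-1.89, SE 0.22, adjusted p = 0.00541). Fgf15 (-1.93), the Nodal antagonist Lefty1 (-2.56) and Igfbp3 (-1.23) fell as well. The ligand Nodal (0.22, adjusted p = 0.293) and the de novo methyltransferase Dnmt3b (-0.65, adjusted p = 0.17), named here after their values were seen, did not pass.

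Naive pluripotency genes, 15 measured, were mixed: 3 fell and 1 rose against WT pluripotent cells, with a median of 0.14, beside the same 8.81% and 6.89% of all genes. Fgf4 (-2.18, SE 0.12), the ligand whose ERK signal carries cells out of the naive state, Prdm14 (-1.75) and Tcl1 (-0.74) fell, and Fbxo15 (0.61, adjusted p = 0.0232), named after its value was seen, rose. Against WT iPSC 4 fell, with Esrrb (-1.43) among them, and Klf2 (0.70), Tfcp2l1 (0.50) and Fbxo15 (0.55) rose. Their medians per array were 10.1 in both KO iPSC, 10.8 and 10.5 in WT iPSC and 10.6 in WT ESC, against 6.10 in KO MEF and 6.35 in WT MEF. These are values of different genes, Zfp42 in KO iPSC, Klf2 in WT iPSC and Fbxo15 in WT ESC. The gap between them is therefore not the difference of a typical gene, whose median was 0.14.

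Relatives of the 10 genes were measured as well. Of 30 listed, 29 were measured and 22 lay above background on at least 1 array. Against WT pluripotent cells 5 of the 29 fell and 2 rose, with a median of -0.02, where 8.81% of all genes were called lower and 6.89% higher. Zic5, next to Zic2 on chromosome 14 with 0 protein-coding genes between them in RefSeq, had 8.94 and 8.74 in KO iPSC, against 9.91 and 9.61 in WT iPSC and 10.50 in WT ESC. It fell by 1.17 on the log2 scale (SE 0.26, adjusted p = 0.0364), close to the -1.14 of Zic2. Among the spalt genes Sall3 rose by 2.18 (SE 0.15, adjusted p = 0.00141), with 9.02 and 9.18 in KO iPSC, against 6.96 and 7.14 in WT iPSC and 6.66 in WT ESC. The forkhead gene Foxd2, below background in the WT pluripotent arrays, rose at least 1.21-fold (adjusted p = 0.0262). Sall1 fell (-0.54, SE 0.10, adjusted p = 0.0193), and Sall4, a partner of the core pluripotency factors, did not pass (-0.0043, SE 0.08). Among claudins Cldn9 fell (-0.53, SE 0.12) while Cldn4, at 11.02 and 11.08 in KO iPSC against 9.12 and 10.22 in WT iPSC and 10.30 in WT ESC, did not pass (1.17, SE 0.36, adjusted p = 0.0864). The SoxC gene Sox12 fell (-1.13, SE 0.26) and Sox11 did not pass (-0.58, SE 0.23, adjusted p = 0.159).

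Because Sox4, Zic2, Pou3f1 and Sall2 are also neural genes, neural precursor markers were measured beside them. Of 13 measured, 5 fell, 1 rose and 7 did not pass in KO iPSC against WT pluripotent cells, with a median of -0.13. Over all genes 8.81% were called lower and 6.89% higher. Olig2 fell at least 11.4-fold. The neuronal tubulin Tubb3 (log2 -3.30) and the adhesion molecule Ncam1 (-2.99) also fell, while Sox21 rose (1.01). Ncam1 was highest in the fibroblasts, at 12.06 in KO MEF and 12.20 in WT MEF. Tubb3 had 8.21 in KO MEF and 9.27 in WT MEF, and Olig2 was below background in both (5.42 and 5.93). The neural medians per array were 7.09 and 7.27 in KO iPSC, 8.07 and 8.19 in WT iPSC and 7.93 in WT ESC, with 7.25 in KO MEF and 7.40 in WT MEF. On the WT pluripotent arrays the median is the value of Gbx2, which had 8.24 and 8.32 in KO iPSC. The gap between these medians is therefore not the difference of a typical marker. Of 17 fibroblast markers 4 fell and 0 rose (median -1.21), and of 8 primitive endoderm markers Gata6 rose (1.15) and Dab2 fell (-1.02). The part of such other cells in the values of the 10 genes was not tested.

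**Figure D4:**
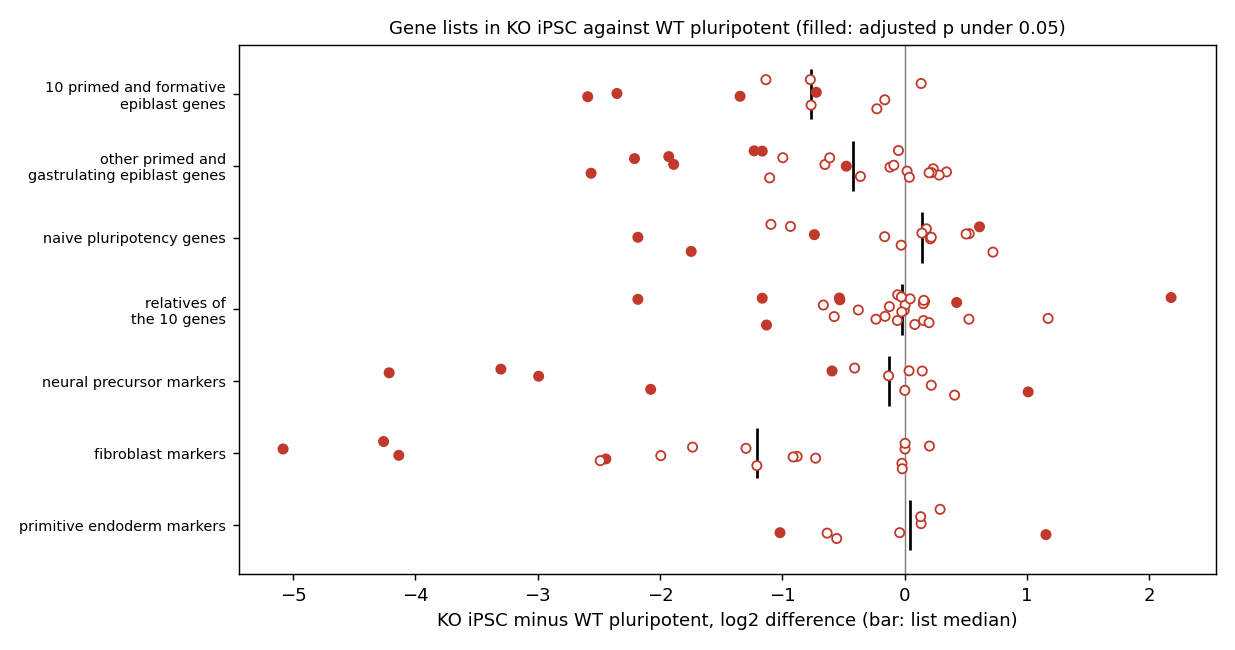
Log2 difference (horizontal axis) in KO iPSC against WT pluripotent for every measured gene of 7 lists (rows). Points are genes, filled where adjusted p was under 0.05, and bars are list medians, which lay at -0.77 for the 10 genes, -0.42 for other primed and gastrulating genes and 0.14 for naive genes.

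Across the 7 arrays, the gene with the profile most like each of the 10 was looked up by Pearson's r among 7109 genes that ranged over at least 1 log2 unit. Rln3 was nearest to Otx2 (r = 0.998), Calb2 to Cldn6 (0.998), Ptk7 to Sox4 (0.999), Hhip to Sfrp2 (0.99), Mipep to Pou3f1 (0.995) and Radil to Fgf5 (0.967). Wdr36 was nearest to Zic2 (0.993), Gm10324 to Foxd3 (0.999), Slc50a1 to Sall2 (0.99) and Hnrnpa3 to Wnt8a (0.981). With 7 arrays in 5 groups, the arrays share cell types, and the values are given as descriptions.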

How the data were processed

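Each of the 7 samples was hybridised to 1 single-colour Affymetrix array. The deposited values are linear intensity, 1 for each of 33649 probe sets. Per the submitters' processing notes, the tools were RMA and Affymetrix Expression Console (version 1.3.0.187). The genome build is not given in the sources used here. The design had left the scale open, the values ran from 9.67 to 13043, and log2 was taken with no further normalization. Symbols come from the platform annotation (23521 probe sets with 1 symbol, 1814 with several, 8314 not listed), and the probe set with the highest mean stood for a gene.

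Tests used limma 3.58.1 in R 4.3.3 (lmFit, eBayes), two-sided, adjusted over 22180 genes. KO iPSC against WT pluripotent cells was fitted on 5 arrays (residual degrees of freedom 3). The contrasts of KO iPSC with WT iPSC or WT ESC, and those of WT ESC with WT iPSC and of the interaction, came from 1 fit of all 7 arrays (2 degrees of freedom), and iPSC against MEF from an additive fit with genotype (3 degrees of freedom). Groups of 1 array are assumed to vary like the iPSC pairs. Where all arrays of the dim group lay below background, the fold is a lower bound against the yardstick or the probe set's own value, whichever is higher. The script was tested on simulated data. Precision is limited by how many arrays there are.

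Named genes are the 10 genes, Nanog, up to 6 genes a list with the largest differences among those passing, relatives above background, and the nearest profile. Members and lists were chosen with earlier results of these data known. Of 115 listed symbols 111 were found, and the others were not analysed here. Alternatives changed the scaling, the filter on dim genes, the variance model, the probe set rule, an offset of 32, the arrays in the fit and the replicates.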

Additional observations from a re-analysis of the deposited data

Results flagged for a closer look

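The test of the interaction between genotype and cell type (iPSC or MEF) passed for 4 of the 10 genes, all of them lower. Over all genes 5.48% were called lower and 3.07% higher. Otx2, Sox4 and Fgf5 no longer passed with either KO iPSC array left out. Among the 4 genes Otx2 was below background on both MEF arrays, where no genotype difference could be seen, so its interaction repeats the iPSC difference. In Otx2 and Fgf5 both KO iPSC arrays were below background, and the sizes are fitted values. For Sfrp2 the difference of differences was -4.56 (SE 0.22, limma adjusted p = 0.00415), since KO minus WT was -0.70 in iPSC and 3.86 in MEF, the MEF value resting on 1 array of each genotype, and it was -2.37 with both probe sets averaged. For Otx2 it was -2.40 (SE 0.25, adjusted p = 0.0111), with -2.37 in iPSC and 0.03 in MEF, where both arrays were below background. For Sox4 it was -1.71 (SE 0.24, adjusted p = 0.0211), with -1.35 in iPSC and 0.36 in MEF, and -1.30 with both probe sets averaged. Sox4 stood at background on the KO iPSC arrays (6.40 and 6.49). For Fgf5 it was -0.89 (SE 0.17, adjusted p = 0.0443), with -0.53 in iPSC and 0.36 in MEF.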

How the results depend on the processing

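Otx2 passed in KO iPSC against WT pluripotent cells and against WT iPSC under all 14 alternatives of each comparison (adjusted p from 0.000362 to 0.0242 and from 7.15e-05 to 0.0263), and the Sfrp2 interaction passed under all 12 (-4.71 to -2.37, the smallest with probe sets averaged). With the 2 KO iPSC arrays counted as 1, members called were 1 (WT pluripotent), 1 (WT iPSC), 2 (WT ESC) and 1 (interaction), and genes called were 365, 506, 304 and 114, with 1 in WT ESC against WT iPSC. With an array left out, members called ranged from 1 to 6 against WT pluripotent cells, 1 to 7 against WT iPSC, 2 to 8 against WT ESC, 0 to 4 in WT ESC against WT iPSC, 3 to 6 in iPSC against MEF and 1 to 6 in the interaction. The low ends came without a KO iPSC array, in iPSC against MEF also without WT iPSC replicate 1. Except against WT pluripotent cells and in iPSC against MEF, the high ends came without a WT iPSC array. The close KO pair alone then sets the spread. Leaving out a WT iPSC array in the WT ESC comparison, or a KO iPSC array in WT ESC against WT iPSC, changes only the spread, and was added after seeing the data. WT ESC could not be left out of its own comparisons, nor a MEF array out of the interaction. Genes called then ranged from 341 to 4167 against WT pluripotent cells, 519 to 5979 against WT iPSC, 292 to 6420 against WT ESC, 1 to 2289 in WT ESC against WT iPSC, 4405 to 7967 in iPSC against MEF and 89 to 5016 in the interaction. The fit of all 7 arrays called 7 members against WT pluripotent cells, with Fgf5, Pou3f1 and Zic2 added, and 19.8% of all genes (4396, against 3483). In WT ESC against WT iPSC genes called were 36, or 22 without the dimmest 0.333 of genes, 95 with a trend and robust fitting, and 5 with an offset of 32.

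In iPSC against MEF, with an array left out, Sfrp2 ranged from -3.66 to 0.90 and Fgf5 from -0.66 to 0.23. The low ends came without WT MEF, where the fit gives KO iPSC minus KO MEF. The high ends came without KO MEF, where it gives WT iPSC minus WT MEF. The other values that changed sign passed at neither end. In KO iPSC against WT iPSC Foxd3 ranged from -0.001 to 0.12 and Wnt8a from -0.28 to 0.0471. In WT ESC against WT iPSC Otx2 ranged from -0.23 to 0.14, Sall2 from -0.0241 to 0.16, Sox4 from -0.18 to 0.16 and Sfrp2 from -0.0939 to 0.20, and Sox4 was 0.0251 after median centring and 0.13 with probe sets averaged. In the interaction Wnt8a ranged from -0.14 to 0.19 and was -0.0421 after median centring and -0.011 after quantile normalization, where Foxd3 was 0.025. The causes of these other changes of sign were not tested.

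The replicate numbers did not pair the arrays (r = 0.0166 across 22180 genes between same-numbered deviations of KO and WT iPSC). With the replicate block 6 members and 3279 genes passed in KO iPSC against WT iPSC, against 6 and 3656 without it.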

Other observations

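In the MEF pair, which has 1 array of each genotype and no test, other secreted Frizzled-related genes stood on the same side as Sfrp2. Sfrp1 had 11.80 in KO MEF and 9.73 in WT MEF, and Frzb had 7.56 in KO MEF and 5.47 in WT MEF. Sfrp4 differed by 0.60 and Sfrp5 by -0.22, and these genes were looked at after the Sfrp2 value was seen. The Zic genes lay the other way: Zic1 had 7.85 in KO MEF and 8.69 in WT MEF, and Zic5 had 7.36 in KO MEF and 8.25 in WT MEF, beside Zic2 with 7.30 in KO MEF and 8.28 in WT MEF. Pou3f3, a relative of Pou3f1, had 8.18 in KO MEF and 6.68 in WT MEF, while the 5 pluripotent arrays lay between 6.27 and 7.05.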
